A study of Sus scrofa with 6 samples.

Results

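Cells with open neural progenitor genes were selected from single-cell ATAC-seq libraries of pig somites and myotomes, an assay in which a transposase, Tn5, cuts open chromatin and droplet barcodes assign the fragments to cells. A cell was a member when its barcode held 2000 to 30000 counts in peaks, at least 4 of 10 gene windows had a count, and the summed counts of these windows were at least 3 times the mean share over the 6 libraries, which was 0.0442% of the counts of a barcode. A window is the gene body plus 2 kb upstream of its start. The 10 genes were SOX2, SOX21, PAX6, NKX6-1, OLIG2, HES5, DBX1, FAM181A, TMPRSS5 and LHX2. The rule was met by 1396 of 58809 kept barcodes, and the other barcodes of the same library are called the rest.

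Somites of purebred Tibetan pigs (ZZ) and of DurocxTibetan pigs (DZ) were collected on days 18 (E18) and 21 (E21) of embryonic development, and myotomes of both on day 28 (E28). There was 1 library per stage and breed, made from 5 pooled embryos of a single sow, so a stage was represented by 2 libraries and the breeds within a stage had no replicate. Stage and tissue cannot be told apart at E28. In every library pair, 113 to 157 kept barcodes were shared, and 1 barcode was a member in more than a single library.

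Neural progenitors line the lumen of the neural tube, which lies between the paired somites. SOXB1 factors such as SOX2 keep them dividing, Notch signaling through HES factors holds back differentiation, and proneural bHLH factors such as NEUROG2 drive exit to the neuron. Sonic hedgehog from the floor plate and WNT and BMP signals from the roof plate set the dorsoventral domains, in which NKX6-1 and OLIG2 mark ventral cells, DBX1 and DBX2 intermediate cells and PAX3 and PAX7 dorsal cells. PAX3 and PAX7 also mark the dermomyotome of the somite and so do not separate neural from muscle precursors.

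The sequences at the centres of 3 regions with large differences and of a region upstream of a proneural gene were chosen because they carry letters that were searched for in all regions; most of the other named regions did not, as given with them. They are the forward strand of Sscrofa11.1, 5′ to 3′, and capitals mark matches on either strand to the letters of the SOX (ACAATG), TEAD (CATTCC), proneural E-box (CAGATG), POU octamer (ATGCAAAT), RFX (GTTGCC) and homeodomain (TAATTA) motifs.
SLAIN1 intron, chr11:49862921-49863220: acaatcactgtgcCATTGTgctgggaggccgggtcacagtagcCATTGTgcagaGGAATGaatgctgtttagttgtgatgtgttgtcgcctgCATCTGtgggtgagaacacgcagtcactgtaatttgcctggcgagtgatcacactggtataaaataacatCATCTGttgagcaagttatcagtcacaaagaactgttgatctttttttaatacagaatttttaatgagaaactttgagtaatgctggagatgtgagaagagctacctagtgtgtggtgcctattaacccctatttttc
SLC2A12 intron, chr1:29850582-29850881: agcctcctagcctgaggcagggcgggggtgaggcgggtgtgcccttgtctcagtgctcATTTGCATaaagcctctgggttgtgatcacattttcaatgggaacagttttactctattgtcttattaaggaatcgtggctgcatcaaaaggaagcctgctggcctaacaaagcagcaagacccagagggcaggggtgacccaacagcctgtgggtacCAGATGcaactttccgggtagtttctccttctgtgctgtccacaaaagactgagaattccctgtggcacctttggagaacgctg
Distal region nearest to SEMA6A, chr2:120723695-120723994: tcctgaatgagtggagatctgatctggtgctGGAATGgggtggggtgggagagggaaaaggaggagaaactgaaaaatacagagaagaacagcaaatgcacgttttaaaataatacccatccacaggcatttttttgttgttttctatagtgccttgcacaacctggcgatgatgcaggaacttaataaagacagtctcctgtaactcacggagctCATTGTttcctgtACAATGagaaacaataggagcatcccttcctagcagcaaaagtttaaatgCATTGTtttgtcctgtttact
NEUROD4 upstream region, chr5:20044185-20044484: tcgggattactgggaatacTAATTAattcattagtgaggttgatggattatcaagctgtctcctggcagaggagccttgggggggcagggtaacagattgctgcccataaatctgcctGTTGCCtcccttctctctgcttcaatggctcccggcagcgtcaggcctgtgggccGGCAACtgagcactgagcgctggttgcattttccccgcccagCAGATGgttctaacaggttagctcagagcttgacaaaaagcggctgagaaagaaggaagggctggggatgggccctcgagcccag

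Members made up 3.49% of kept cells in E18 ZZ (392 of 11243, exact 95% binomial interval 3.16% to 3.84%) and 4.09% in E18 DZ (412 of 10073, 3.71% to 4.50%). At E21 they made up 3.84% in ZZ (357 of 9286, 3.46% to 4.26%) and 2.33% in DZ (218 of 9347, 2.04% to 2.66%). The E28 myotome libraries held 4 members of 9410 cells in ZZ (0.0425%, 0.0116% to 0.109%) and 13 of 9450 in DZ (0.138%, 0.0733% to 0.235%). All 4 somite libraries thus lay above both myotome libraries, and E21 DZ was the lowest of the somite libraries. With a stricter rule of 5 windows and 5 times the mean share the somite order changed. E18 ZZ was then lowest (0.133%, 15 cells), followed by E18 DZ (0.189%), E21 DZ (0.246%) and E21 ZZ (0.312%, 29 cells), and E28 had 0 members. These shares follow from the rule and are given as a description without a test. The intervals cover counting error only.

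The share depends on the peaks that were called, since counts exist only inside the peaks of a library. Peaks covered 79970 to 92927 bp of the 10 windows in the somite libraries, 44072 bp in E28 ZZ and 62803 bp in E28 DZ. With the windows counted only in regions that had a peak in all 6 libraries, the numbers at E28 were again 4 and 13, and the somite libraries held 222 to 410 members. With every cell thinned to 5000 counts and shallower cells left out, the shares were 3.05% to 5.49% in the somite libraries and 0.170% and 0.386% in the myotome libraries. Without thinning, the same cells gave 2.76% to 4.40% and 0.0424% and 0.172%.

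**Figure D1:**
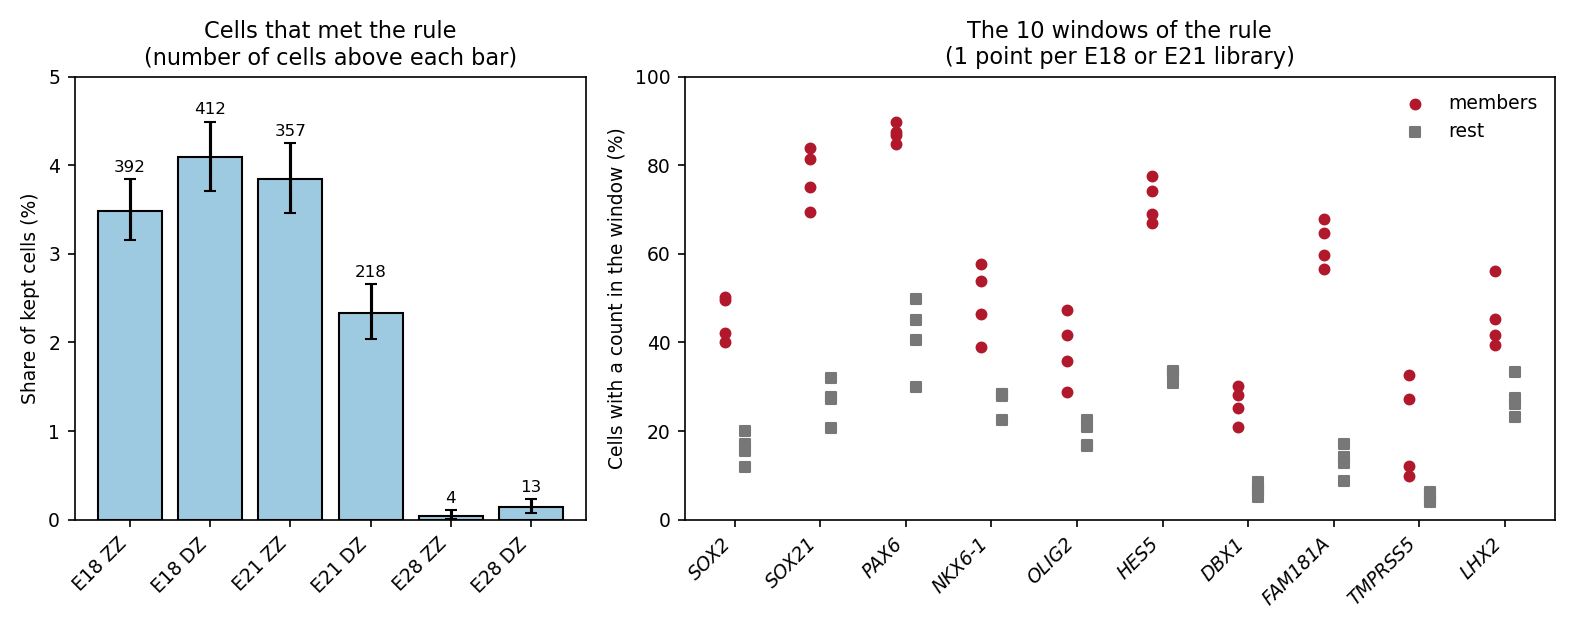
Left, members as a percentage of kept cells in each library, with exact 95% binomial intervals (bars) and the number of members above each bar; the 4 somite libraries stand at 2.33% to 4.09% and the 2 myotome libraries at 0.0425% and 0.138%. Right, percentage of members (circles) and of the rest (squares) with a count in each of the 10 windows of the rule in the 4 somite libraries, which chose the members and is shown as a description.

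PAX6, a homeodomain factor of the neural tube, was the rule window most often open, with a count in 87.5% of members and 36.7% of the rest. SOX21 had a count in 76.6% of members and 23.0% of the rest, and HES5, a target of Notch, in 71.1% and 23.1%. FAM181A followed with 61.4% and 10.4%. These 4 windows were therefore open in most members, and each was also open in over 1 in 10 cells of the rest.

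The other windows of the rule were open in fewer members. SOX2 had a count in 45.1% of members and 13.9% of the rest. NKX6-1 had a count in 50.9% of members (24.6% of the rest), OLIG2 in 39.8% (16.5%), DBX1 in 25.6% (6.07%), LHX2 in 46.6% (25.7%) and TMPRSS5 in 18.9% (4.40%). No member had all 10 windows open, and 468 had 4, 436 had 5 and 228 had 7 or more. The summed share of a member was a median of 3.64 times the mean share. Just inside the threshold lay 584 members with 3 to 3.5 times the mean share, and just outside it lay 983 cells with 4 or more windows and 2.5 to 3 times the mean share, besides 452 cells with 3 windows that met the threshold on the share. The boundary thus ran through a continuous range of cells.

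Members had a median of 9575.5 counts in E18 ZZ and 11121.5 in E18 DZ, compared with 10981 and 11465 in the rest. The medians at E21 were 9365 in ZZ and 11589 in DZ, compared with 10539 and 9668. Summed over members, the libraries held 4008415, 4983273, 3920154 and 2682507 counts in the order E18 ZZ, E18 DZ, E21 ZZ and E21 DZ, but 35065 in E28 ZZ and 148942 in E28 DZ. A fragment with 2 cut sites in E28 ZZ is therefore worth 57.0 CPM (the count of a window as a part of the summed counts of its class, on the usual CPM scale), and the E28 values of members rest on few fragments.

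Windows outside the rule were then compared between members and the rest on counts summed per library and class, with the edgeR quasi-likelihood test and the library as a block. Of 22458 windows tested, 3149 (14.0%) passed an adjusted p of 0.05, with 1393 higher (6.2%) and 1756 lower (7.82%) in members, and the median log2 fold change over all windows was -0.03. Without E21 ZZ 1623 windows passed, and 20 of the genes named below lost the call, namely NKX6-2, INA, FGFR3, ETS1, HOXA4, HOXB8, HOXA7, NOTCH3, HEY1, PTCH1, GLI3, CHRNA1, CDH15, SOX5, PAX9, PAX1, ERG, RUNX1, CDH1 and TP63. Leaving out E18 ZZ, E18 DZ or E21 DZ removed the call of 12, 11 and 9 genes, all from this set except KRT18, which did not pass without E18 DZ. More of the named windows lost the call in other settings. These were 55 with cells chosen by 5 windows and 5 times the mean share, 52 with no replicate block and 23 with DESeq2. DESeq2 called 1279 windows in all. In the 4 somite libraries alone 4277 of 22372 passed (19.1%), 2224 higher (9.94%) and 2053 lower (9.18%). Since libraries stand in for replicates, p-values rest on the spread between libraries, which the quasi-likelihood test shares in part across windows. In the main fits of regions and of stage, given below, p-values were those of a normal distribution at the fold change over its SE. There the spread was in effect taken from all windows or regions together. A small p-value in these fits does not show that the libraries had like values at the named window or region.

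Neural progenitor genes that the rule did not use were higher in members in 15 of 24 windows, with a median log2 fold change of 0.51, against 6.2% of all windows. SOX1, a SOXB1 factor, had 38.9, 47.8, 43.6 and 60.0 CPM in members of E18 ZZ, E18 DZ, E21 ZZ and E21 DZ, and 20.1, 23.5, 18.0 and 17.6 CPM in the rest. The classes did not overlap, and the log2 fold change over 6 libraries was 1.32 (SE 0.15, edgeR adjusted p = 6.4e-09). The region at its gene, chr11:77983967-77988727 and exonic, carried all of these counts. SOX3, the SOXB1 gene on the X chromosome, had 49.4, 49.0, 40.3 and 46.6 CPM in members and 25.2, 28.0, 15.3 and 18.1 in the rest (log2 1.13, SE 0.16, adjusted p = 8.3e-07), whereas the 2 E28 libraries had no count of it in members.

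HES3, a HES-family repressor of differentiation, had 92.3 to 117 CPM in members and 36.8 to 52.2 CPM in the rest of the somite libraries (log2 1.10, SE 0.13, edgeR adjusted p = 5.3e-09). RFX4, an RFX factor of the neural tube, had 148 to 189 CPM in members and 71.5 to 93.8 CPM in the rest (log2 0.96, SE 0.14, adjusted p = 4.9e-07). Members and rest of these 4 SOX, HES and RFX genes, named as those with the largest fold of the list, were separate in the somite libraries. RFX4 did not pass with DESeq2. As summed classes, members were thus more open than the rest at these 4 genes, which the rule left out. Summed over the 24 windows of the list, members had 1.27 to 1.58 times the level of the rest in the somite libraries.

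Proneural factors showed the highest median among the lists, 0.84, with 9 of 11 windows higher in members, against 6.2% of all windows. NEUROG2, which drives neurogenesis, had 122, 135, 111 and 108 CPM in members of the somite libraries and 54.8, 67.1, 55.3 and 42.6 CPM in the rest (log2 1.21 over 6 libraries, SE 0.12, edgeR adjusted p = 1.3e-10). It was also higher in both E28 libraries, in E28 ZZ by a single fragment. NEUROG1 had 35.7 to 71.6 CPM in members and 16.1 to 26.1 CPM in the rest (log2 1.21, SE 0.17, adjusted p = 7e-07). Its highest member value was in E21 DZ. NEUROG3 (log2 0.94) and PTF1A (0.86), a factor of dorsal inhibitory precursors, followed, although PTF1A stood at -0.63 in cells chosen with 5 windows and 5 times the mean share. The region upstream of NEUROD4 shown above (chr5:20043556-20045113) had 20.7 to 53.7 CPM in members and 10.8 to 12.98 CPM in the rest of the somite libraries (log2 1.47, SE 0.27, adjusted p = 3.6e-06).

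In the list for the intermediate and dorsal neural tube, 9 of 19 windows were higher (median 0.40), and in the ventral list 3 of 8 (median 0.36), against 6.2% of all windows. PRDM13, a factor of dorsal progenitors that favors inhibitory neurons, had 113, 121, 175 and 222 CPM in members of the somite libraries and 59.1, 66.9, 55.6 and 41.3 CPM in the rest (log2 1.48, SE 0.15, edgeR adjusted p = 2.5e-10). DBX2 had 53.8 to 65.6 CPM in members and 20.2 to 33.7 CPM in the rest (log2 1.198). PRDM12 (0.999), which specifies an intermediate domain, and WNT3A (0.91), a ligand of the roof plate, passed the test as well. WNT3A no longer passed when only regions with a peak in all 6 libraries were counted.

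Among ventral genes NKX2-2, which marks the progenitors next to the floor plate, differed most (log2 1.18, SE 0.15, edgeR adjusted p = 3.9e-08). Its members had 87.6 and 59.9 CPM in the 2 ZZ libraries and 43.1 and 31.7 CPM in the DZ libraries at E18 and E21, against 32.6 and 28.5 and 21.9 and 13.3 CPM in the rest. In the merged region at the gene (chr17:29272498-29282877), which takes every peak of a library that overlaps it, members had 87.6 and 59.9 CPM in ZZ and 78.7 and 63.7 CPM in DZ (log2 1.24). Lower DZ values were thus seen at both stages with the window, which sums the peaks assigned to the gene in each library. With the region DZ was lower at E18 alone, and by less. Members were higher than the rest in each of the 4 libraries with both. NTN1, the floor plate guidance cue netrin-1, had a log2 fold change of 0.59 and NKX6-2 of 0.44. NKX6-2 did not pass with DESeq2.

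**Figure D2:**
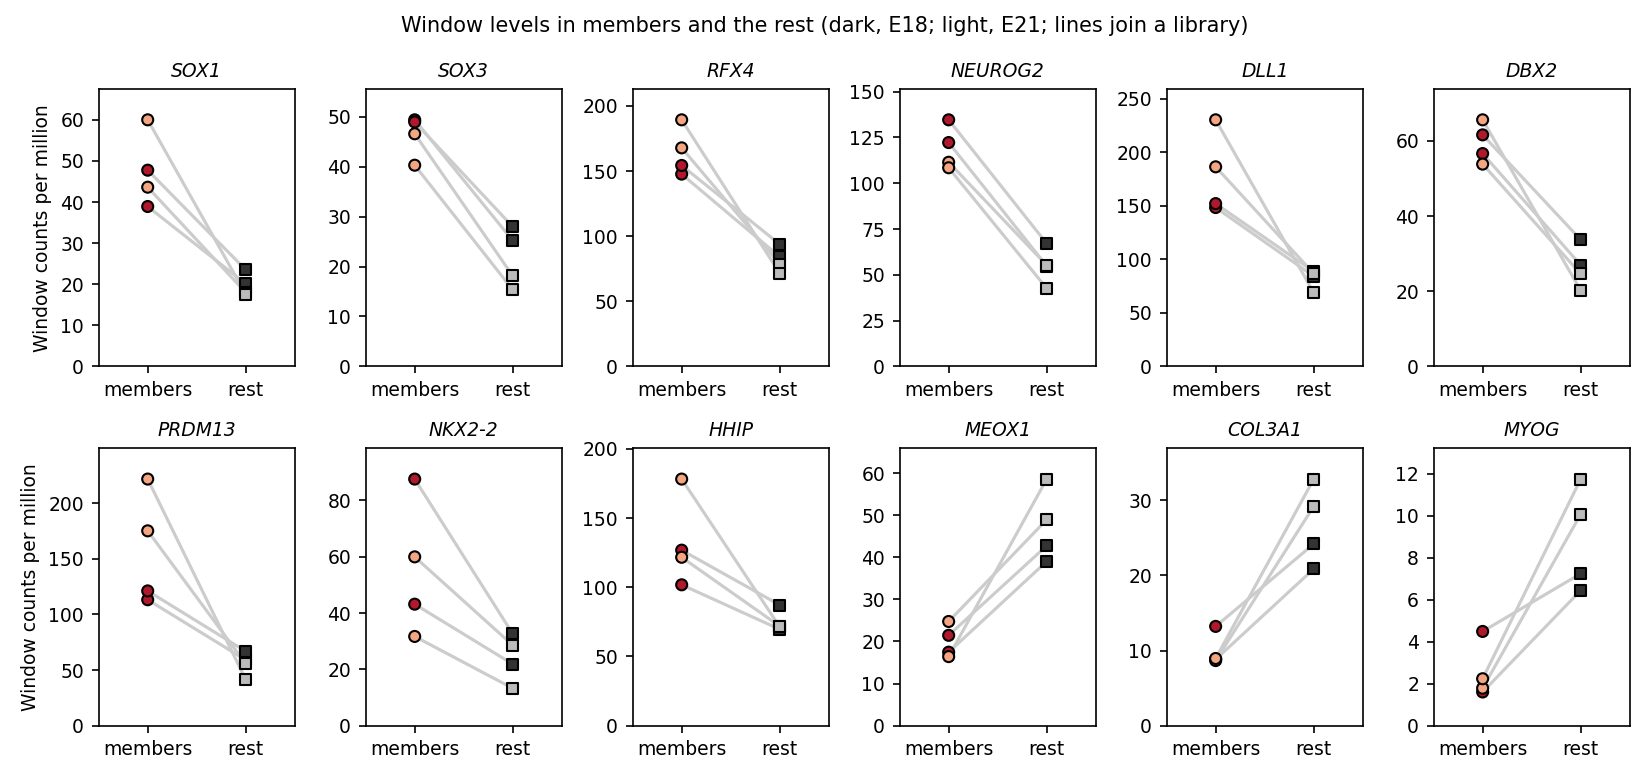
CPM of 12 gene windows in members (circles) and the rest (squares) of the 4 somite libraries, with lines joining the 2 classes of a library and an axis from 0 in each panel. Members lie above the rest in each library for the first 9 genes and below it for MEOX1, COL3A1 and MYOG.

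Genes of differentiated neurons were less uniform. Of 23 windows 6 were higher and 1 lower, with a median of 0.12, against 6.2% and 7.82% of all windows. LHX5, of interneurons, had 26.1 to 38.3 CPM in members and 10.7 to 26.7 CPM in the rest of the somite libraries (log2 0.91, SE 0.19, edgeR adjusted p = 0.00037), so that the ranges touched. ELAVL4, an RNA-binding protein of neurons, had 112 to 139 CPM in members and 65.6 to 87.7 CPM in the rest (log2 0.71, SE 0.12, adjusted p = 2.9e-05). INA, a neuronal intermediate filament, stood at 0.52 and reversed to -0.02 when only promoters were counted.

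Of 10 glial windows 2 were higher and 2 lower, against 6.2% and 7.82% of all windows, with a median of 0.07 and summed levels of 0.91 to 0.95 times the rest in the somite libraries and 1.25 times in both E28 libraries. GFAP (log2 0.74) and FGFR3 (0.54), both expressed in radial glia, were higher in members. PDGFRA (-0.58) and CSPG4 (-0.53), shared by oligodendrocyte precursors and mesenchyme, were lower. Of 67 single regions in the glial windows 1 was higher and 14 lower, against 5.77% and 19.4% of all regions tested. GFAP did not pass with shared regions alone, and GFAP and FGFR3 did not pass with DESeq2. In the neural crest list EDNRB, the endothelin receptor B, was higher (log2 0.92) and ETS1 lower (-0.46), and the median was -0.08 over 10 windows. Among factors of brain regions 2 of 14 were higher, GBX2 (0.80) and SIX6 (0.59), against 6.2% of all windows, and the median was 0.04, so the list lay near the background.

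Of the Notch pathway 5 of 13 windows were higher, against 6.2% of all windows, with a median of 0.09. Of single regions in these windows 9 of 68 were higher and 11 lower (13.2% and 16.2%, median -0.11), against 5.77% and 19.4% of all regions tested. DLL1, a ligand presented by cells entering differentiation, had 148, 152, 186 and 230 CPM in members of the somite libraries and 84.2, 88.6, 86.7 and 68.9 CPM in the rest (log2 1.12, SE 0.13, edgeR adjusted p = 5.5e-09). LFNG, a glycosyltransferase that modulates Notch, had 382 to 466 CPM in members and 253 to 282 CPM in the rest (log2 0.60), although the difference was -0.01 with promoters alone. The receptor NOTCH3 (0.41) and the target HEY1 (0.39) passed in the main test but not with DESeq2. DLL1 thus showed the clearest separation of the pathway.

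Of the Hedgehog pathway 3 of 12 windows were higher and 1 lower, against 6.2% and 7.82% of all windows. HHIP, which binds the ligand at the cell surface and is itself induced by it, had 102, 127, 122 and 178 CPM in members and 69.6, 87.2, 71.8 and 71.4 CPM in the rest of the somite libraries (log2 0.80, SE 0.13, edgeR adjusted p = 5.1e-06). The receptor PTCH1 and the transcription factor GLI3 both stood at 0.45 and lost the call with DESeq2, whereas DISP1, which releases the ligand, was lower (-0.62). Of single regions in the windows of the list, 13 of 111 were higher (11.7%) and 31 lower (27.9%), against 5.77% and 19.4% of all regions tested. Among the higher ones was an intron region of GLI2 (chr15:30411887-30413860) with 56.0 to 88.4 CPM in members and 14.9 to 19.01 CPM in the rest of the somite libraries (log2 2.17, SE 0.26, adjusted p = 2.6e-13).

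Of 36 HOX windows 9 were higher in members, with a median of 0.24, against 6.2% of all windows. In the somite libraries alone 18 of 36 were higher with a median of 0.27, against 9.94% of all windows. Of single regions in these windows 1 of 30 was higher (3.33%) and 0 lower, against 5.77% and 19.4% of all regions tested. The median of these regions was 0.06, against -0.21 for all regions. HOXB1 differed most (log2 1.03, SE 0.15, edgeR adjusted p = 1.3e-06), with 51.1 to 69.4 CPM in members and 14.8 to 43.3 CPM in the rest of the somite libraries. HOXA4 (0.47), HOXB8 (0.44) and HOXA7 (0.41) followed. HOX windows within a cluster overlap the same broad peaks, so HOXB5, HOXB6 and HOXB7 had identical values in the somite libraries and are not independent. Summed over the 10 windows of paralog groups 1 to 4, which pattern the hindbrain and neck, members had 1.14 to 1.35 times the level of the rest in the somite libraries. For groups 5 to 8 the ratio was 1.08 to 1.30, and for groups 9 to 13 it was 0.97 and 0.90 at E18 and 1.16 and 1.23 at E21.

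Somite and mesenchyme genes were lower in members in 11 of 16 windows, with a median of -0.51, against 7.82% of all windows. LUM, the matrix proteoglycan lumican, had 1.204 to 5.10 CPM in members and 8.97 to 15.6 CPM in the rest of the somite libraries (log2 -2.00, SE 0.29, edgeR adjusted p = 8.7e-07). COL3A1, fibrillar collagen III, had 8.67 to 13.2 CPM and 20.9 to 32.8 CPM (log2 -1.28). MEOX1, a homeodomain factor of the somite, had 21.5, 17.5, 24.7 and 16.4 CPM in members and 42.8, 39.0, 48.9 and 58.6 CPM in the rest (log2 -1.09). DCN (-1.08), the proteoglycan decorin, lost the call with DESeq2. Summed over the 16 windows, members had 0.59 to 0.75 times the level of the rest in the somite libraries, and 1.11 and 0.99 times in E28 ZZ and E28 DZ.

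Myogenic genes were lower in 4 of 12 windows (median -0.32), against 7.82% of all windows, namely MYOG (-1.59), the myogenic factor of differentiation, CHRNA1 (-0.88), a subunit of the muscle acetylcholine receptor, SIX4 (-0.59) and CDH15 (-0.42), the muscle cadherin. MYOG had 4.49, 1.61, 1.79 and 2.24 CPM in members and 7.25, 6.45, 10.1 and 11.8 CPM in the rest of the somite libraries. CHRNA1 did not pass without the E28 libraries. Summed over the 12 windows, members had 0.69 to 0.83 times the level of the rest in the somite libraries, and 1.04 and 1.12 times in E28 ZZ and E28 DZ. Of single regions in these windows 2 of 18 were lower, against 19.4% of all regions tested.

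Markers of other cells were mixed, and the counts below stand against 6.2% of all windows higher and 7.82% lower, near which several of them lie. Of 10 endothelial windows TIE1, a receptor of blood vessels, was higher (0.88), and FLI1 (-0.71) and ERG (-0.42) were lower, with sums of 0.74 to 0.92 times the rest in the somite libraries. Blood windows were lower in 2 of 7 (PTPRC -1.12, RUNX1 -0.44) with sums of 0.69 to 0.77 in the somite libraries, but of 1.71 and 1.19 in E28 ZZ and E28 DZ. Epithelial windows were higher in 2, among them TP63 (0.54), and lower in 2 of 9 (KRT18 -1.05, CDH1 -0.55), with sums of 1.02 to 1.19 over the 6 libraries. In the sclerotome list SOX5 was higher (0.46) and PAX9 (-0.45) and PAX1 (-0.42) lower, of 10 windows. SOX5 is active in neural progenitors and in cartilage alike. With DESeq2 the calls of TIE1, RUNX1, CDH1, TP63, SOX5, PAX9 and PAX1 were lost. Of the genes of the other lists, WNT3A, INA, HOXA4, CHRNA1 and CDH15 also lost the call with DESeq2.

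**Figure D3:**
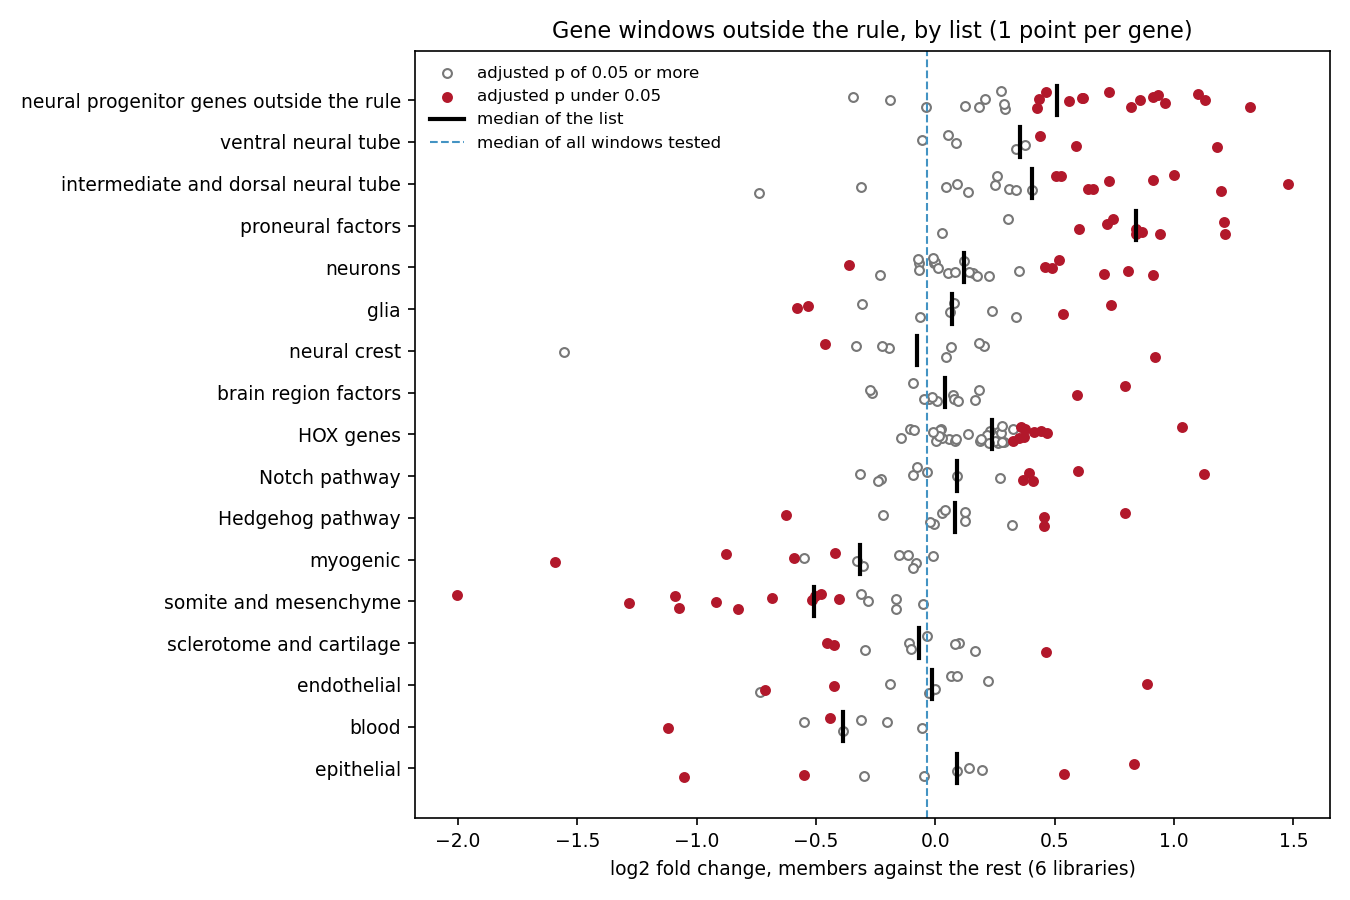
log2 fold change of each gene window between members and the rest (1 point per gene, 6 libraries) by list; filled points passed an adjusted p of 0.05 (edgeR), black bars are list medians and the dashed line is the median of all windows tested, -0.03. The list medians run from 0.84 for proneural factors to -0.51 for somite and mesenchyme genes.

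Among all windows with the same direction in 6 of 6 libraries and a mean of at least 10 CPM, 259 were higher and 447 lower. In E28 ZZ, with 4 members, a window without a fragment counts as lower, and in the 4 somite libraries alone 1948 were higher and 1437 lower in 4 of 4. The 10 with the largest increase included SOX1, the window of the microRNA gene MIR219B (log2 1.38), C14H10orf35 (1.36), SYT11 (1.33), a synaptotagmin of vesicles, RAB27A (1.24), a GTPase of secretion, and 5 uncharacterized loci. SYT11 had 117, 120, 186 and 204 CPM in members and 53.9, 63.2, 63.0 and 57.6 CPM in the rest of the somite libraries (SE 0.13, edgeR adjusted p = 9.2e-11). C14H10orf35 had 172 to 223 CPM in members and 59.7 to 89.4 CPM in the rest. MIR219B had 49.2 to 77.3 CPM and 14.3 to 30.5 CPM, and microRNAs of the miR-219 family are known from the neural lineage. None of these 4 windows overlapped between the classes of the somite libraries, which follows in part from their choice by fold and direction. LOC102165158, also among the 10, did overlap, with 26.2 CPM as the lowest value in members and 29.1 CPM as the highest in the rest.

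The uncharacterized loci were LOC110260598 (1.52), LOC106506917 (1.42), LOC102165158 (1.38), LOC106509192 (1.32) and LOC110255407 (1.22). Of these, LOC102165158 and LOC110255407 are noncoding RNA genes with a highly ranked region in their bodies. With promoters alone the direction reversed for LOC106509192 (-2.01), LOC102165158 (-0.95), LOC110255407 (-0.27) and RAB27A (-0.11). Lowest in members were RGS5 (-2.14), a gene of pericytes, LRRC17 (-2.07) and the noncoding LOC106504246 (-2.64), LOC102163645 (-2.17) and LOC110256686 (-2.06). None of these 5 had a count in members at E28. The 3 noncoding loci reached the mean of 10 CPM through the rest at E28, which had 28.6 to 58.2 CPM, and in the somite libraries members and rest of LOC106504246 overlapped. RGS5 had 2.21 to 6.38 CPM in members and 18.2 to 23.8 CPM in the rest of the somite libraries.

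Members were next compared region by region. Peaks of the 6 libraries that overlapped were merged, and 78517 regions with a peak in all 6 libraries lay outside the rule windows. Of these, 4531 were higher in members (5.77%) and 15252 lower (19.4%) by the edgeR test, and the median log2 fold change of all regions was -0.21, so that list medians should be read relative to this shift. In the 4 somite libraries alone 8393 regions were higher and 12339 lower, with a median of -0.13. Without E21 ZZ 12717 regions passed in all. Regions higher in members were intronic in 43.1%, distal in 35.4% and exonic in 20.3%, whereas all tested regions were intronic in 35.6%, distal in 31.6% and exonic in 31.6%. Lower regions were intronic in 46.1%, distal in 38.6% and exonic in 14.3%. The larger intronic and distal shares were thus not particular to higher regions. A region that overlapped an exon was counted as exonic even where it also reached upstream of a start. Regions upstream of a start without an exon were 1.15% of higher regions and 1.197% of all.

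Among 229 regions that were called higher, had the same direction in 6 of 6 libraries and a mean of at least 10 CPM, the largest increase lay in an intron of SLAIN1 (chr11:49862478-49863663), 55094 bp from the nearest start site. This condition requires a fragment in the 4 members of E28 ZZ, and an intron region of SOX6 (chr2:42620661-42622127) without one there had a larger fold (log2 2.45), with 22.7 to 61.9 CPM in members and at most 9.46 CPM in the rest of the somite libraries. The SLAIN1 region had 37.7, 39.7, 54.1 and 50.3 CPM in members of the somite libraries and 7.12 to 12.6 CPM in the rest (log2 2.42, SE 0.27, edgeR adjusted p = 1.1e-15). Its centre, shown above, held matches to the SOX, TEAD and proneural E-box letters. An intron region of SLC2A12 (chr1:29850051-29851411) had 27.9 to 44.7 CPM in members and 7.44 to 11.5 CPM in the rest (log2 2.12, SE 0.27, adjusted p = 8.5e-12), with octamer and proneural E-box letters at its centre. A distal region 36247 bp from the start of SEMA6A, a semaphorin (chr2:120723084-120724605), had 27.8 to 37.3 CPM and 6.63 to 10.8 CPM (log2 2.11, SE 0.28, adjusted p = 3.7e-11), with SOX and TEAD letters. Members and rest did not overlap at any of these regions, which were chosen for their large folds.

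The other regions named by the rule were an exon of LOC102165158 (chr1:4263243-4265786, 2.17), a distal region nearest to RGMA (chr7:85775857-85776996, 2.14), an intron of LOC110255407 with FAM181B as the nearest coding start (chr9:16954230-16956784, 2.06), an intron of SRGAP3 (chr13:65488436-65489645, 2.02) and a distal region nearest to CTLA4 (chr15:107222407-107223065, 1.98). The last had 6.49 to 13.6 CPM in members of the somite libraries and reached the mean of 10 CPM through 57.0 and 47.0 CPM in the 17 members of E28. The LOC102165158 region had 23.2, 31.9, 69.6 and 98.4 CPM in members and 6.20, 9.79, 15.8 and 17.2 CPM in the rest, and was higher at E21 than at E18 in both classes. RGMA, a repulsive guidance molecule, and SRGAP3, a regulator of neurite outgrowth, act in the nervous system. The centres of these 5 regions held no match to the 6 motifs shown above, apart from TEAD letters in the region nearest to CTLA4. Nearness to a start does not show which gene a region serves.

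By list, and against 5.77% of all regions higher and 19.4% lower, 11 of 18 regions in the windows of proneural factors were higher (61.1%, median 0.88) and 18 of 69 in those of the neural progenitor genes (26.1%, median 0.24). In the intermediate and dorsal list 14 of 63 were higher and 8 lower. An intron region of PAX7 (chr6:77185581-77187470) had 28.7, 28.9, 37.5 and 63.4 CPM in members and 8.71, 12.3, 13.1 and 9.12 CPM in the rest of the somite libraries (log2 1.89, SE 0.26, edgeR adjusted p = 2.3e-10). An intron region of PAX3 (chr15:124163561-124166823) had 23.0 to 37.3 CPM and 5.63 to 11.9 CPM (log2 1.77, SE 0.29, adjusted p = 2e-07). The whole windows of PAX7 (log2 0.51) and PAX3 (0.64) differed less than these single introns. Regions in endothelial windows were lower in 26 of 60 and those in somite and mesenchyme windows in 19 of 52.

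Motif letters were counted in the central bases of all 78517 regions on both strands. The SOX letters stood in 20.02% of regions higher in members, 11.7% of those lower and 11.4% of all regions. RFX letters stood in 15.5%, 10.3% and 11.6%, and the POU octamer in 2.56%, 1.38% and 1.43%. The proneural E-box CAGATG was found in 23.7% of higher regions, 33.3% of lower regions and 24.2% of all. TEAD letters stood in 18.8%, 23.9% and 18.3%. Higher regions had a mean GC content of 50.8%, lower regions of 47.3% and all of 52.7%. Within regions of 40% to 50% GC, SOX letters stood in 25.03% of higher, 12.6% of lower and 15.7% of all regions, and RFX letters in 15.3%, 10.9% and 11.8%. In the same GC range the proneural E-box stood in 23.1% of higher, 34.9% of lower and 28.5% of all regions, TEAD letters in 21.9%, 26.2% and 22.9%, and the POU octamer in 3.08%, 1.67% and 1.95%. These shares describe letters in a window and are not counts of bound sites.

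**Figure D4:**
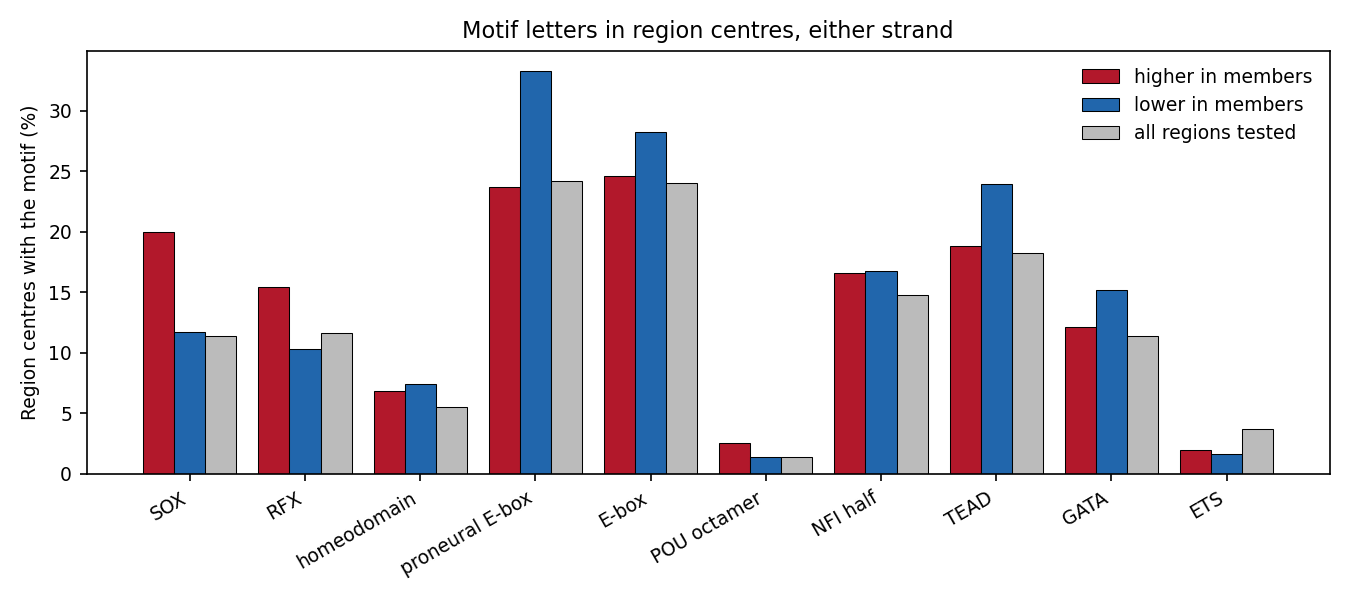
Percentage of region centres with the letters of each motif on either strand among 4531 regions higher in members, 15252 lower and all 78517 tested, with bars from 0. SOX, RFX and POU octamer letters were most frequent in the higher regions and the proneural E-box in the lower ones.

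Counts in promoters are here those of whole peaks that overlap the 2 kb upstream of a gene start. As a percentage of all counts, they were 40.8%, 39.5%, 43.4% and 43.5% in members of the somite libraries and 40.3%, 39.8%, 42.9% and 42.5% in the rest. The mean difference over 6 libraries was 1.07 percentage points (SD 1.76), with members higher in 5 of 6 (exact sign-flip permutation test, two-sided, p = 0.0938). Without E28 DZ, where 13 members had 48.0% and the rest 43.4%, the mean was 0.38. The difference was thus within the spread between libraries.

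The comparison of E21 with E18 asked how members changed as somites matured. Within members 519 of 19781 windows passed the test (2.62%), 128 higher (0.647%) and 391 lower (1.98%), in a model with terms for stage and breed. The number and the balance depended on the fit, with 13 higher and 35 lower with DESeq2, 62 and 82 with shared regions, 83 and 5 with the called length of each window as an offset, and 1043 and 1540 in the 4 somite libraries alone. When a somite library was left out, 0 to 3 windows passed. Most windows of the neural lists did not pass. POU3F3, a POU factor of the neural tube, rose from 90.6 and 57.2 CPM at E18 to 139 and 145 CPM at E21 (log2 0.95, SE 0.25, edgeR adjusted p = 0.013). It did not pass with DESeq2, with shared regions alone, with the called length as an offset or when a somite library was left out. In 9 epithelial windows 4 fell, among them KRT18, KRT8 and CDH1. KRT8, a keratin of simple epithelia, fell from 43.4 and 33.1 CPM to 7.65 and 9.69 CPM in members (log2 -2.16, SE 0.41, adjusted p = 5.1e-05), and in the rest it stood at 50.03 and 44.7 CPM and then at 9.83 and 12.1 CPM. KRT8 passed with DESeq2 and with shared regions alone. With the called length as an offset it stood at -0.54 (adjusted p = 0.72), and none of these 3 passed there or when a somite library was left out.

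Of 36 HOX windows 11 rose in members at E21, against 0.647% of all windows, with a median of 0.55 against -0.01 for all windows. HOXC10, a posterior HOX gene, went from 15.5 and 12.8 CPM at E18 to 159 and 408 CPM at E21 in members (log2 4.19, SE 0.31, edgeR adjusted p = 2e-38). The rest went from 24.99 and 17.8 CPM to 130 and 318 CPM, and the peaks called in the window went from 7351 and 5009 bp to 28271 and 57007 bp. With regions that had a peak in all 6 libraries, HOXC10 stood at 0.66 (adjusted p = 0.14), the list median was 0.51, and HOXA10 had the smallest adjusted p, 0.081. With the called length as an offset HOXC10 stood at 1.43 (adjusted p = 0.0046) and was the only HOX window that passed, and the list median was 0.51. HOXC10 was followed by MIR196A-2 (3.82) and LOC102167757 (3.54), which share its peaks. The noncoding LOC110261197 and LOC100515492, ranked above HOXC10, were listed at 0 in members at E18 and had 5.61 to 7.83 CPM at E21. The window of LOC110261197 held no called peak at E18, and both loci reached the mean of 10 CPM through a single fragment in E28 ZZ (57.0 CPM). The window of MIR1 had 30.7 and 36.1 CPM in members at E18 and held no called peak at E21, so its 0 there in both classes follows from the peak calling. The noncoding LOC106509095 had 6.49 and 9.43 CPM in members at E18 and was listed at 0 at E21, where its window held no called peak in ZZ and 401 bp in DZ, and it too reached the mean through 57.0 CPM in E28 ZZ. GDPD3, MIR195 and MIR497 fell in members by 5.76, 4.53 and 4.53 on the log2 scale, with the rest at like levels. The called length in the GDPD3 window went from 11516 and 11032 bp to 1005 and 286 bp, and GDPD3 stood at -0.07 with shared regions. MIR195 and MIR497, whose called length went from 7267 and 7100 bp to 839 and 664 bp, stood at 0.19 when only shared regions were counted.

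Whether the difference between members and the rest itself changed from E18 to E21 was tested as an interaction, which 258 of 22458 windows passed (1.15%), 107 of them (0.476%) with a larger difference at E21. The number was 1 with DESeq2, 112 with shared regions, and 3, 1 and 25 without E18 ZZ, E18 DZ and E21 DZ. In the intermediate and dorsal list 5 of 19 windows passed, all with a larger difference at E21: PRDM13, WNT3A, PAX7, PRDM12 and PAX3. PAX7 had 204 and 172 CPM in members and 166.8 and 170 CPM in the rest at E18, but 274 and 316 CPM and 181 and 137 CPM at E21 (interaction log2 0.77, SE 0.16, edgeR adjusted p = 0.0015). WNT3A had 52.6 and 58.8 CPM in members and 39.9 and 48.3 CPM in the rest at E18, and 79.8 and 89.8 CPM and 34.3 and 27.8 CPM at E21 (1.12, SE 0.23, adjusted p = 0.00078). For these genes the distance between the classes was thus larger in both E21 libraries than in either E18 library.

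PRDM13 had the largest interaction of the list, 1.15 (SE 0.18, edgeR adjusted p = 1.9e-06), as members rose from 113 and 121 CPM to 175 and 222 CPM while the rest had 59.1 and 66.9 CPM and then 55.6 and 41.3 CPM. POU3F3 (0.85, adjusted p = 0.0047), PRDM12 (0.73, adjusted p = 0.016), DLL1 (0.63, adjusted p = 0.034) and PAX3 (0.62, adjusted p = 0.034) also had a larger difference at E21. The direction held in every alternative that was run, whereas the calls did not. With DESeq2 none of these 7 genes passed, their adjusted p being 0.53 or more, and none passed when E21 DZ or either E18 library was left out, which leaves a stage with 1 library. With shared regions alone PRDM13 (1.14), PAX7 (0.78) and PRDM12 (0.71) passed, whereas WNT3A stood at 0.49 (edgeR adjusted p = 0.78). In the 4 somite libraries alone 808 of 22372 windows passed (3.61%), 397 with a larger difference at E21 (1.77%), and 8 of 19 in the intermediate and dorsal list were among the latter, and all 7 genes passed there too. In the 6 libraries 2 HOX windows passed, HOXC10 (0.93) and HOXB1 (0.89). The median interaction of the ventral list was 0.14, compared with 0.45 in the intermediate and dorsal list. Among all windows the largest interactions were those of ABAT (2.13), which breaks down GABA, with 7.98 and 12.04 CPM at E18 and 32.4 and 58.5 CPM at E21 in members, and, in the opposite direction, LOC110257081 (-2.91) and EGFL6 (-2.52). With DESeq2 none of ABAT, LOC110257081, EGFL6, HOXC10 and HOXB1 passed.

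**Figure D5:**
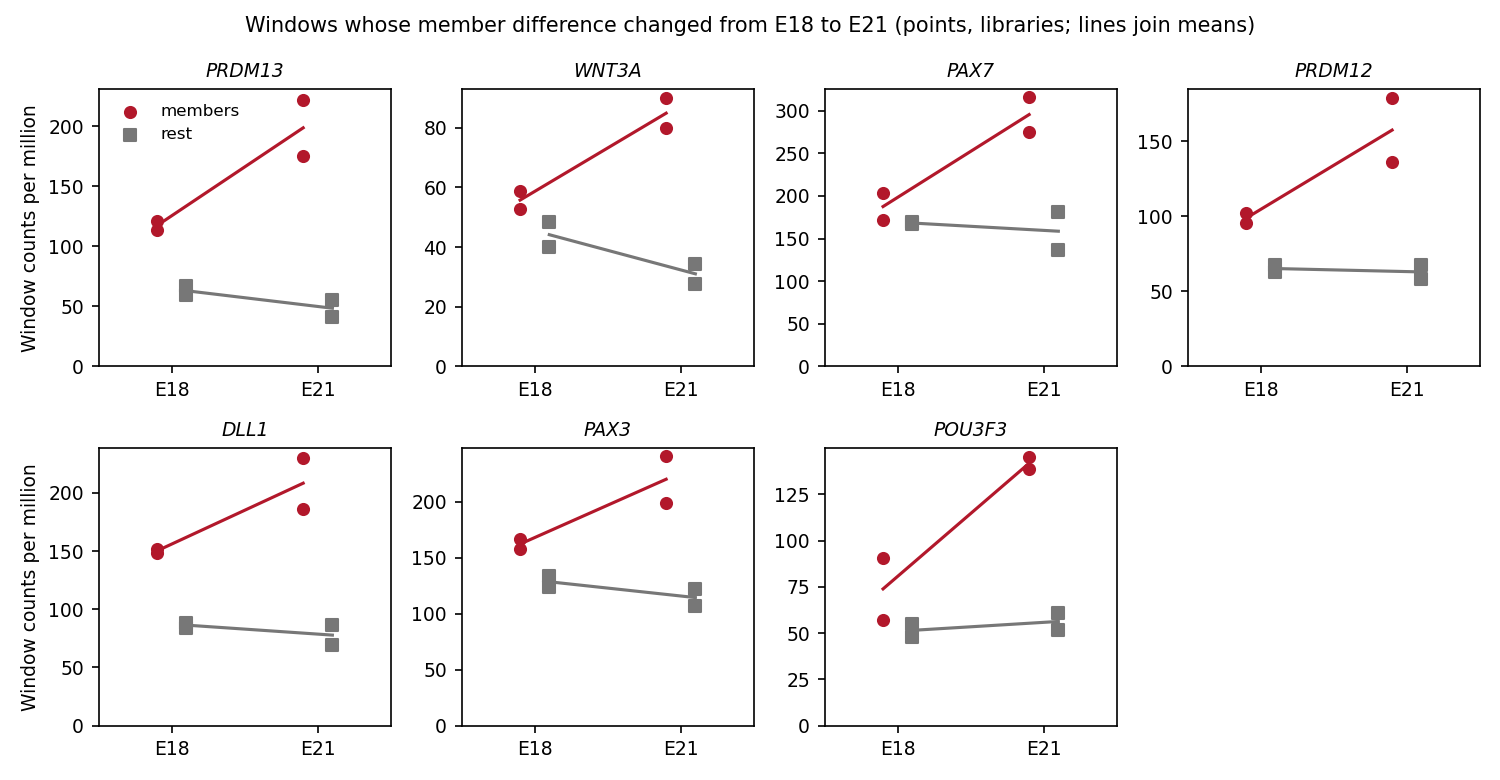
CPM of 7 gene windows in members (red) and the rest (grey) at E18 and E21, with a point per library and lines joining the means of the 2 libraries of a stage; each axis starts at 0. The lines of members rise for all 7 genes, and the distance to the rest is larger at E21 than at E18.

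At E28 the 17 members gave many windows a sum of 0. Within members 376 of 19781 windows differed at E28 from E18 (1.9%), 51 higher (0.258%) and 325 lower (1.64%), and leaving out single libraries moved the number between 3 and 2793. With the called length as an offset 82 were higher and 4 lower, and with DESeq2 28 and 18. The difference between members and the rest itself depended on these stages in 44 of 22458 windows (0.196%). Levels are therefore given without a fold change. HHIPL1 had 105 and 115 CPM in members at E18, 93.6 and 140 CPM at E21 and no count at E28, while the rest had 39.2 and 46.3, 30.7 and 24.5, and 13.6 and 9.93 CPM. HOXB6 had 340 and 278 CPM in members at E18 and no count at E28, and its peaks fell from 55577 and 55457 bp to 3141 and 3285 bp. NEUROG2 stood at 57.0 CPM in E28 ZZ and 154 CPM in E28 DZ, compared with 32.2 and 33.9 CPM in the rest. SOX1 stood at 57.0 and 60.4 CPM, compared with 12.7 and 17.4 CPM. A value of 57.0 CPM in E28 ZZ is a single fragment. In the members of E28 ZZ 7 of 11 proneural, 9 of 24 neural progenitor and 6 of 8 ventral windows had no count, and in those of E28 DZ 2, 2 and 0.

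Members were divided by the windows of 2 ventral genes. A count in NKX6-1 or OLIG2 was found in 969 members, and 427 had none. The rule used both windows, so their own difference is no finding. Members with no count there met the rule through its other windows, so the 2 kinds of members also differ in how they were chosen. Over the 5 libraries that held both kinds, since E28 ZZ had only members with a count, 1 of 18799 windows passed (0.00532%). This was PAX7, which had 186, 157, 226 and 267 CPM in members with a count and 263, 234, 372 and 384 CPM in the others in the somite libraries (log2 -0.58, SE 0.11, edgeR adjusted p = 0.017), and it did not pass when any of these 4 libraries was left out. PAX7 marks dorsal cells, and it was lower in the cells with an open ventral window in all 4 libraries. PAX3 stood at -0.53 (adjusted p = 0.59), and in the somite libraries alone it passed as well (-0.49, SE 0.10, adjusted p = 0.042), so that 2 of 18895 windows were lower there (0.0106%). DESeq2 also called 1 window.

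The other genes of the dorsoventral lists did not pass in this division. NKX2-2 (log2 0.52), NKX6-2 (0.44) and OLIG1 (0.69) stood above 0, and PRDM13 (-0.50), WNT3A (-0.50), GSX2 (-0.50) and PTF1A (-0.65) below 0, with unadjusted p between 0.00034 and 0.028. In all, 614 of 18799 windows had an unadjusted p under 0.05, which is fewer than 1 in 20, and the genes given here were picked after their values were seen. OLIG1 lies beside OLIG2. Members with a count in NKX6-1 or OLIG2 made up 293 of 392 in E18 ZZ, 324 of 412 in E18 DZ, 225 of 357 in E21 ZZ and 115 of 218 in E21 DZ. These numbers come from windows of the rule and depend on the peaks called in them, and are given as a description.

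Neuron cells, chosen by the same kind of rule with 10 neuron windows, numbered 1146, and 71 of them were members as well. These 71 were 5.09% of members and 6.20% of neuron cells. In the 4 somite libraries members and neuron cells differed in 709 of 20264 windows (3.5%), 452 higher (2.23%) and 257 lower in members (1.27%), and the number fell to 7 without E21 ZZ and to 307 without E21 DZ. Without E21 ZZ only HES3 of the list genes named here passed. Of the neural progenitor list 9 of 24 windows were higher in members, including RFX4, which had 147, 155, 171 and 191 CPM in members and 106, 92.0, 79.6 and 61.8 CPM in neuron cells (log2 0.98, SE 0.14, edgeR adjusted p = 0.0017). HES3 (0.70), SOX3 (0.68) and SOX1 (0.58) were also higher, as were DBX2 (0.97), PRDM13 (0.91) and PRDM12 (0.83). At a mean of at least 10 CPM the largest increases in members were those of GBP2 (1.79), LOC102163368 (1.76), LOC110256263 (1.74), MTTP (1.60) and DGAT2L6 (1.60). The largest decreases were those of LOC106505191 (-1.75), SCN10A (-1.66), LOC110261786 (-1.64), LOC110260277 (-1.62) and LOC100626276 (-1.45).

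Of 13 Notch pathway windows 3 were higher and 2 lower in members in this comparison, against 2.23% and 1.27% of all windows. The receptor NOTCH3 was higher in members (log2 0.60, SE 0.12, edgeR adjusted p = 0.0072), as were LFNG (0.48) and DLL1 (0.42), whereas DLL3, a ligand found in newborn neurons, was lower (-0.77, SE 0.18, adjusted p = 0.023) and MFNG too (-0.74). DLL3 had 21.2 to 27.8 CPM in members and 23.0 to 55.5 CPM in neuron cells. GLI1, a direct target of Hedgehog signaling, was higher in members (0.68, adjusted p = 0.022), with 75.8 to 92.2 CPM against 29.9 to 67.5 CPM. SYT1, a synaptic vesicle protein, was lower (-0.56, adjusted p = 0.017).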

How the data were processed

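The authors aligned scATAC-seq reads to Sscrofa11.1 with Cell Ranger ATAC and called peaks and cells in each library separately; the matrices they deposited give, for every peak and barcode, an unnormalized number of cut sites (counts). The filters of the study on other quality measures were not applied and no doublet caller was run. Counts of 58809 barcodes with 2000 to 30000 counts were assigned to gene windows of the RefSeq annotation and to merged regions (overlap of at least 1 bp). The annotation gave 25423 genes, some without a peak. Counts were summed per library and class and tested with edgeR 4.0.16 (R 4.3.3; TMM, filterByExpr, quasi-likelihood F test, library as a block, Benjamini-Hochberg adjusted p under 0.05); stage fits had terms for stage and breed. The 12 windows that share a peak with a rule window were left out. Standard errors were the absolute fold change over the root of F. The fit was tested on simulated counts. DESeq2 1.42.0, other filters, windows, rules and libraries were alternatives. With promoters alone, windows ran from 2 kb upstream to 500 bp downstream of a gene start. The neuron comparison used the 4 somite libraries, since E28 ZZ held 18 neuron cells and 4 members, and cells of both sets were left out. Motifs were counted in the central 300 bases. The members and lists were chosen with earlier results of these data known. Named genes were, per list, the 4 called with the largest fold, besides the 10 highest and 5 lowest windows and the 8 highest regions. These windows and regions had the same direction in all libraries and a mean of at least 10 CPM. In the other fits genes were taken from the 5 largest in each direction, not all of which are named. Further genes of the lists were named after their values were seen. Some genes of the lists are counted but not reported here by name.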

Additional observations from a re-analysis of the deposited data

Results flagged for a closer look

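The difference between members and the rest depended on stage in 258 windows for E21 against E18 and in 44 for E28 against E18, by the interaction term of the edgeR fit. The first number was 1 with DESeq2 and 1 to 857 without single libraries, and the second was 633 with DESeq2. Among genes of the lists, the difference was larger at E21 than at E18 for PRDM13 (log2 1.15), WNT3A (1.12), HOXC10 (0.93), HOXB1 (0.89), POU3F3 (0.85), PAX7 (0.77), PRDM12 (0.73), DLL1 (0.63) and PAX3 (0.62). HOXC10 stood at 0.20 with shared regions alone, and WNT3A at 0.49. The summed rule windows also differed more from the rest at E21 than at E18.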

How the results depend on the processing

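The count of windows that separated members from the rest (3149) was 1279 with DESeq2, 270 with the rule of 5 windows and 5 times the share (0 members at E28, so 4 libraries), 1618 with promoters alone and 365 with no replicate block, and 1623 to 3614 without single libraries. No paired analysis beyond the library block was possible, since there was 1 library per stage and breed. For regions (19783) these counts were 11719 with DESeq2, 211 with the stricter rule, 10351 with no replicate block and 12717 to 21462 without single libraries. The stage comparison of E28 with E18 within members (376) gave 46 with DESeq2, 62 with promoters alone, 86 with the covered length as an offset, where the balance turned from 51 higher and 325 lower to 82 and 4, 67 with shared regions and 3 to 2793 without single libraries, and its dependence on membership (44) gave 633, 20 with shared regions and 0 to 660 without single libraries. The fits without a library leave a stage with 1 library, assumed to vary like the others. The division by NKX6-1 or OLIG2 (1) gave 2 in the somite libraries and 0 to 2 without single libraries, and members against neuron cells (709) gave 366 with DESeq2 and 7 to 604 without single libraries. The promoter difference ranged from 0.38 to 1.36 percentage points without single libraries. The share of members (2.37%) was 2.53% with 4000 to 60000 counts, 0.146% with the stricter rule, 3.14% with 3 windows and 3 times the share and 3.26% after thinning. Directions reversed with promoters alone for LOC102165158 (-0.95), LOC106509192 (-2.01), RAB27A (-0.11), LOC110255407 (-0.27), INA (-0.018) and LFNG (-0.014), with the stricter rule for PTF1A (-0.63) and PAX1 (0.038), and with shared regions for the E21 change of MIR195 and MIR497 (both 0.19). The cause was not tested. Of the single values of named windows in the main comparison, 1132 kept direction and call, 218 kept the direction and lost the call, and 8 reversed. The stricter rule took the call from 55 of these windows and reversed 2, and the fit with no replicate block took it from 52. The fits in somite libraries and shared regions and the neuron fit were chosen after seeing the data.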

Other observations

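In the 4 somite libraries alone, protein-coding windows outside the lists differed in both directions. DGAT2L6 had 15.2, 17.3, 21.2 and 24.2 CPM in members and 2.86, 5.06, 4.91 and 3.58 CPM in the rest (log2 2.30, SE 0.24, edgeR adjusted p = 2.9e-05). CSRP3, a muscle LIM protein, had 43.2 to 62.3 CPM in members and 8.77 to 17.6 CPM in the rest (log2 2.10, SE 0.18, adjusted p = 1.1e-05). BTBD17 (log2 1.699) and HHIPL1 (1.75) were higher by the same test, as were GPR65 (1.86), HK3 (1.84) and CSF3R (1.77), which are expressed in myeloid cells. By the same test CD163L1, of the macrophage scavenger receptor family, was lower (-2.05), and the summed blood list stood at 0.69 to 0.77 times the rest. CSF3R had 16.8 to 21.7 CPM in members and 3.02 to 7.70 CPM in the rest. The largest decreases were those of RGS5 (-2.12), CD163L1, LRRC17 (-2.02) and MAP3K7CL (-1.96). This ranking was chosen after seeing the data.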
